A study of Mus musculus with 8 samples.

Results

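The open chromatin of a CD34bright population of common myeloid progenitors, titled C2, was compared with that of a CD34dim CD48bright population, titled C10. The comparison was defined by the sample titles and uses the 2 libraries of C2 and the 2 libraries of C10, which are 4 of the 8 libraries of the series. The cells were primary bone marrow cells of wild-type C57BL/6 mice, with no added allele or agent. C2 cells were sorted as KIT+ CD16/32- CD34bright CD41+ CD9+, and C10 cells as KIT+ CD16/32- CD34dim CD41+ CD9+ CD48bright. The CD48 level of the C2 gate is not given in the labels. Whether the 2 libraries of each population stem from different mice is not in the labels, so a p-value here reflects how far the 4 libraries scatter, and that scatter may be technical. The series text lists partly other cluster names than the sample titles, and the names here are those of the titles.

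Common myeloid progenitors give rise to granulocytes and monocytes on one side and to megakaryocytes and erythroid cells on the other. CD34 marks stem and early progenitor cells and declines as they mature, CD41 (the alpha IIb integrin) appears early on cells of the platelet lineage, CD9 is a tetraspanin abundant on megakaryocytes, and CD48 is a SLAM family receptor gained as stem cells commit. ATAC-seq reads where a transposase can insert adapters into DNA, so a peak marks a promoter or enhancer that is accessible. Granule protein genes depend on PU.1 and C/EBP factors, and megakaryocyte and erythroid genes on GATA factors, in work outside these data.

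Each library has 100000 peaks from the caller F-Seq, ordered by a signal estimated from read density, and a second set from the caller HOMER. The F-Seq lists covered 88.8 and 90.6 Mb in C2 and 94.2 and 99.3 Mb in C10. HOMER listed 171712 and 196264 peaks in C2 and 235812 and 260118 in C10, and 71.1% and 80.8% of F-Seq peaks in C2 were also found by HOMER, against 90.0% and 94.1% in C10. No read counts are given, and the depth behind every value is unknown. The Jaccard index, which divides the bases covered in both libraries by those covered in at least one, was 0.561 for the pair of C2 libraries and 0.695 for the pair of C10 libraries. Between the populations it was 0.532, 0.549, 0.584 and 0.611. In the full F-Seq lists, C2 replicate 2 thus shared more with each C10 library than with C2 replicate 1. With the 20000 strongest peaks it did not, at 0.643 for the C2 pair against 0.568 and 0.598 with the C10 libraries. With the 50000 strongest peaks it held for C10 replicate 2 alone, and with the HOMER lists for C10 replicate 1 alone.

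The F-Seq lists were merged into 143200 regions. Of these, 61610 (43.0%) held a peak in all 4 libraries and are called shared here. Each shared region was given the rank of its strongest peak in each library, where rank 1 is the strongest, and the log2 ranks were compared with limma across all shared regions. The rank of a region is relative to all others of its library, so that a gain for some regions is a loss for others. In C2, 4321 shared regions ranked higher (7.01% of those tested), by a median of 2.32-fold in rank, and in C10 3928 ranked higher (6.38%), by a median of 2.26-fold, at an adjusted p under 0.05. The ranks of the 2 populations did not overlap at 4321 of the former and 3926 of the latter. This adds no support, since the regions were called on these same ranks. Ranks by HOMER score over the same regions had the same sign at 99.9% and 99.3% of them, although no region passed the threshold in that fit alone (limma, smallest adjusted p = 0.0600, with 13532 at an unadjusted p under 0.05). Both callers read the same 4 libraries. Shared regions with no HOMER peak in any library have tied ranks in that fit and a difference of 0.037, toward C2. Such regions therefore count as the same sign among the C2 calls and as the opposite sign among the C10 calls. Each population was a pool of sorted cells, so fewer cells of a type and less open chromatin per cell cannot be told apart. The number of calls, 8249 in all, fell without either C10 library and rose without either C2 library. A fit without 1 library takes its scatter from the pair of the other population alone. Its number of calls therefore cannot show how far the calls rest on the library left out.

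Gene starts and distal sites moved in opposite directions. Of the 10654 shared regions at most 1 kb from a gene start, 2131 ranked higher in C2 (20%) and 249 in C10 (2.34%). Of the 4707 other regions at gene ends, 509 ranked higher in C2 (10.8%) and 139 in C10 (2.95%). Starts here are those of a RefSeq promoter table that lacks chromosome 18 and some other genes. Starts missing from it count among the gene ends, and 59609 of the 61610 shared regions lie on chromosomes with tabulated starts. Of the 46249 distal regions, more than 1 kb from any start or gene end, 1681 ranked higher in C2 (3.63%) and 3540 in C10 (7.65%). Start regions thus made up 49.3% of the regions ranked higher in C2, and distal regions 90.1% of those ranked higher in C10. Among the 10000 strongest peaks of a library, 48.2% and 49.0% lay within 1 kb of a start in C2 and 38.7% and 38.2% in C10, while over all 100000 peaks the shares were 12.9% and 12.6% against 12.4% and 11.9%. The part of this shift in the results for single genes was not tested. As a value to read beside them, the distal regions were ranked again among themselves, a choice made after the shift was seen. Then 1013 distal regions ranked higher in C2 (2.19%) and 809 in C10 (1.75%).

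**Figure D1:**
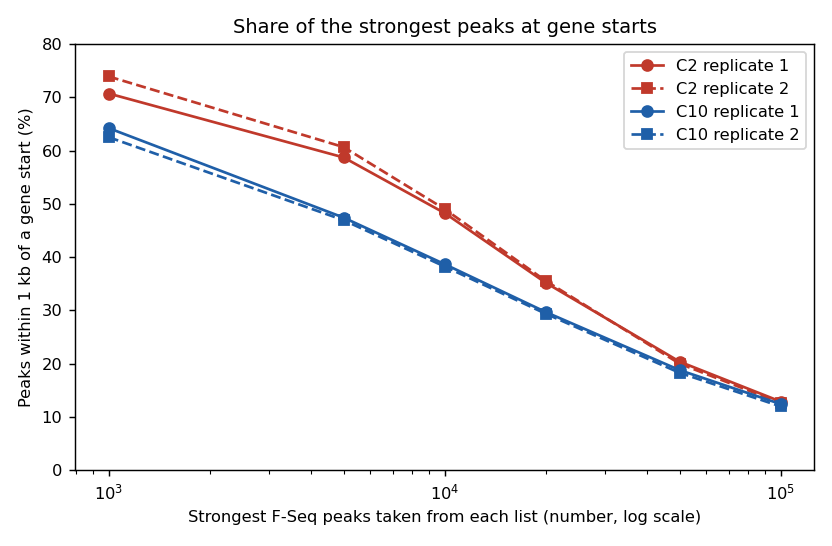
Share of the strongest F-Seq peaks within 1 kb of a tabulated gene start (y axis, percent) by the number of strongest peaks taken from each list (x axis, log scale). Red marks the C2 libraries and blue the C10 libraries, with circles for replicate 1 and squares for replicate 2. At 1000 peaks the C2 libraries stand at 70.7% and 73.9% and the C10 libraries at 64.2% and 62.5%, and the lines meet at 100000 peaks.

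Among the lists of lineage genes, granulocytes and monocytes had the largest share of shared regions ranked higher in C2. Over the loci of 30 such genes, each the gene body extended by 10 kb to either side, 16 of 78 shared regions ranked higher in C2 (20.5%) and 1 in C10 (1.28%). The median log2 rank difference was 0.44 against -0.01 over all shared regions, where a positive value is a higher rank in C2. Housekeeping loci moved the same way, with 18 of 62 regions higher in C2, 2 in C10 and a median of 0.39. Among distal regions alone, 5 of 41 ranked higher in C2 (12.2%, against 3.63% of all distal regions) and 0 in C10, and 3 of the 5 also did when distal regions were ranked among themselves. For the distal housekeeping regions the counts were 3 and 1 of 24, and 3 and 0 when ranked among themselves.

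The start of Mpo, which encodes myeloperoxidase of the primary granules, ranked 13936 and 13688 in the C2 libraries and 51789 and 50154 in the C10 libraries. Both C2 libraries placed it above both C10 libraries, a log2 difference of 1.88 ± 0.32 (SE, n = 2 against 2, adjusted p = 0.000279). A distal region 2767 bases from that start ranked 21880 and 13779 against 67424 and 48889 (1.73 ± 0.34, adjusted p = 0.00104), and also passed among distal regions alone (adjusted p = 0.0153). The start of Ctsg, the granule protease cathepsin G, stood at ranks 12055 and 15734 against 40334 and 34211 (adjusted p = 0.00364). The Prtn3 start, of proteinase 3, had ranks 17851 and 19352 in C2 and 38512 and 40509 in C10 (adjusted p = 0.0221). This region lies within the extended locus of Elane, neutrophil elastase, and counts for both genes. The starts of Clec12a, an inhibitory lectin of myeloid cells, and Gfi1, a repressor needed for granulocyte formation, also passed (adjusted p = 0.00455 and 0.0166). Of the 8 called start regions of the list, 2 in the Lcn2 locus are starts of the neighbouring genes 1110008P14Rik and Ptges2.

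At Spi1, which encodes PU.1, 2 of 7 shared regions ranked higher in C2. The stronger of them, 19017 bases from the nearest tabulated start, that of Mybpc3, ranked 4557 and 3164 against 8130 and 7570 (adjusted p = 0.0315, and 0.0233 among distal regions alone). A region in the locus of Cebpe, a factor of late granulocyte maturation, lay 18326 bases from the nearest tabulated start, that of Acin1, and ranked 4267 and 2782 against 8259 and 7170 (adjusted p = 0.0191). The only region of the list called for C10 was at Csf2ra, and there C2 replicate 1 alone stood apart, with rank 67834 against 769, 704 and 897 in the other libraries. Without C2 replicate 1 its log2 difference was 0.05, and by HOMER scores it was 0.67.

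Several granule genes had a start region in C2 with no F-Seq peak in C10. Of the 169 merged regions at this list's loci, 15 were called in both C2 libraries and in neither C10 library (8.88%, against 2.34% of all merged regions), and 4 in C10 alone (2.37%, against 5.99%). The S100a9 start ranked 24378 and 26574 in C2, with HOMER peaks in both C2 libraries and in neither C10 library. Its partner S100a8, with which it forms calprotectin, had a start region at ranks 25723 and 15741 in C2, but HOMER listed peaks there in both C10 libraries as well. The start of Camp, the cathelicidin gene, ranked 59691 and 55769 in C2 and had HOMER peaks in both C2 libraries only. The start of Ms4a3, a marker of granulocyte-monocyte progenitors, ranked 26051 and 36661, and HOMER found a peak there in 1 C10 library. Starts of Lcn2 (70500 and 52513) and of Mmp8, neutrophil collagenase (51667 and 90778), were also called in C2 alone, each with a HOMER peak in 1 of the C2 libraries. Of the 15 regions, 2 were without any HOMER peak in C10 and had one in both C2 libraries, at S100a9 and Camp. By the same rule, 2 of the 4 regions in C10 alone were private to C10, at Csf3r and Clec12a. Over all regions called in 1 population alone, the rule held for 16.0% of those in C2 and 64.8% of those in C10. HOMER listed more peaks in each C10 library than in either C2 library, and the part of this in the rule was not tested.

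The promoters of 5 of these genes are given below. They lie within start regions above that ranked higher in C2 or were called in C2 alone. Each runs from 250 bases before to 50 bases after the RefSeq start (GRCm38.p6, the assembly of mm10), 5′ to 3′ on the strand of the gene. Capitals mark matches to 4 motifs, searched on both strands. The GATA motif AGATAA is in 9.65% of the 21263 promoters in the table, the RUNX motif TGTGGT in 15% of them, the ETS motif CCGGAA in 18.7% and the C/EBP motif TTGCNNAA in 10.2%, and none of these words contains another. The genes were chosen after their values were seen.
S100a9: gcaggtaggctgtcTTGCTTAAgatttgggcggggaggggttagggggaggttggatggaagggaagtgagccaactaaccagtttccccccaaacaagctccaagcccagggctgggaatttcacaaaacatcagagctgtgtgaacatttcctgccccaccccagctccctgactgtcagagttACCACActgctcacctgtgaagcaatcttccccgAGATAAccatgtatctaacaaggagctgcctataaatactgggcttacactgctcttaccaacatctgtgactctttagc
Lcn2: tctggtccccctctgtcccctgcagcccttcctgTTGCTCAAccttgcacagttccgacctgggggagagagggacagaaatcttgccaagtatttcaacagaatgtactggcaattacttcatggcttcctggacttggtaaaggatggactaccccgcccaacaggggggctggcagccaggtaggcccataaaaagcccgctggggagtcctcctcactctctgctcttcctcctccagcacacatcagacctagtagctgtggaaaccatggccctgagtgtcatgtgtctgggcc
Clec12a: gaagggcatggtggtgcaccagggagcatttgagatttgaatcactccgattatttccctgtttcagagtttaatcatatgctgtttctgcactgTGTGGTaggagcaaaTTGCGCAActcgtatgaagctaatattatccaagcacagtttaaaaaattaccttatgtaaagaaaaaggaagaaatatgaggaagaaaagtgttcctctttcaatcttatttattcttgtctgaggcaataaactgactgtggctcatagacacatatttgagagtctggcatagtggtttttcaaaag
Ctsg: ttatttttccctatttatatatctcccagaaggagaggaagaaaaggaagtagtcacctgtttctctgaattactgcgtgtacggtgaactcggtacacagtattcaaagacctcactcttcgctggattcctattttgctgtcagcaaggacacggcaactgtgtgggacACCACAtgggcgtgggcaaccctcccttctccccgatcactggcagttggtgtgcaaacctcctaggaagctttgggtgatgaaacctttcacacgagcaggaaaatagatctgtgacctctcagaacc
Mpo: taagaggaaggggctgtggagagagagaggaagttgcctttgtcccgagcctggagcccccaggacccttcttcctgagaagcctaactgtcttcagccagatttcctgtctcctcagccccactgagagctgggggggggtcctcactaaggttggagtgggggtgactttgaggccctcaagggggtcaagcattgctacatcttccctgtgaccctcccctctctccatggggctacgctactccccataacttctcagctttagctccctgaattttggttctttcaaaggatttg
The positions are chr3:90695672-90695971 (minus strand) for S100a9, chr2:32387690-32387989 (minus) for Lcn2, chr6:129349994-129350293 (plus) for Clec12a, chr14:56102525-56102824 (minus) for Ctsg and chr11:87793534-87793833 (plus) for Mpo. The S100a9 window holds C/EBP, RUNX and GATA matches, Lcn2 a C/EBP match, Clec12a RUNX and C/EBP matches and Ctsg a RUNX match. None of the motifs searched is in the Mpo window.

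At the loci of haematopoietic transcription factors, Zfpm1, Etv6, Myb and Runx1 held regions ranked higher in C2. Of 292 shared regions at 32 genes, 32 ranked higher in C2 (11.0%) and 6 in C10 (2.05%), against 7.01% and 6.38% of all shared regions and 29.0% and 3.23% of the housekeeping list, with a median of 0.22. Of the 32, 16 were among the list's 45 start regions, and 20% of all start regions ranked higher in C2. Among 232 distal regions the counts were 16 (6.90%) and 6 (2.59%), against 3.63% and 7.65% of all distal regions, and 11 and 0 when distal regions were ranked among themselves. The start of Zfpm1, which encodes the GATA1 cofactor FOG1, ranked 3348 and 2442 in C2 and 18156 and 11421 in C10 (log2 2.33 ± 0.33, adjusted p = 4.90e-05). A distal region of Etv6, an ETS family repressor needed for marrow haematopoiesis, ranked 3398 and 4246 against 12960 and 11363 (1.68 ± 0.32, adjusted p = 0.000891, and 0.00300 among distal regions alone). Of the 29 shared regions of Etv6, 4 ranked higher in C2 and 0 in C10. The start of Myb, a factor of proliferating progenitors, ranked 13577 and 19498 against 57141 and 36416 (adjusted p = 0.00373). At Runx1, which is required for blood stem cell emergence, 3 of 15 shared regions ranked higher in C2, among them both start regions (adjusted p = 0.00743 and 0.0103). At Erg, an ETS factor of stem cells, and at Runx2, 3 regions each ranked higher in C2, and 1 of those at Runx2 is the start of the neighbouring Supt3.

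The factors with regions ranked higher in C10 were Fli1, Gata3, Meis1, Ikzf1 and Mecom. Mecom, which encodes the stem cell factor EVI1, held 2 of them (adjusted p = 0.0450 and 0.0483) and 0 in the other direction. A distal Fli1 region, of an ETS factor of megakaryocytes, ranked 60585 and 91700 in C2 and 29595 and 35203 in C10 (adjusted p = 0.0113). None of these 6 passed when distal regions were ranked among themselves. Of all 672 merged regions at the list's loci, 39 were called in C2 alone (5.80%) and 17 in C10 alone (2.53%). Runx1 held 9 of the former and Etv6 8. By both callers, 4 of the 9 at Runx1 but 0 of the 8 at Etv6 were private to C2, where both callers means HOMER peaks in both own libraries and in neither other one. Mecom had 4 regions in C10 alone and 0 in C2 alone, and 3 of the 4 were private by both callers.

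Cell cycle loci gave 18 of 138 shared regions higher in C2 (13%, against 7.01% of all) and 1 in C10, and 10 of the 18 were starts. The starts of Cdkn1a, the inhibitor p21, and Cdt1, a replication licensing factor, ranked 5531 and 7763 against 28176 and 20301, and 7443 and 7534 against 31668 and 21209 (adjusted p = 0.000361 and 0.000490). Distal regions of the cyclin gene Ccnd3 and of the kinase gene Cdk6 also passed among distal regions alone (adjusted p = 0.0125, 0.0127 and 0.0207). Cdk6 held 10 of the 19 regions called in C2 alone on this list. None of the 19 was private to C2 by both callers, against 16.0% of all regions in C2 alone. These counts stand beside the housekeeping list, of which 29.0% of shared regions ranked higher in C2.

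**Figure D2:**
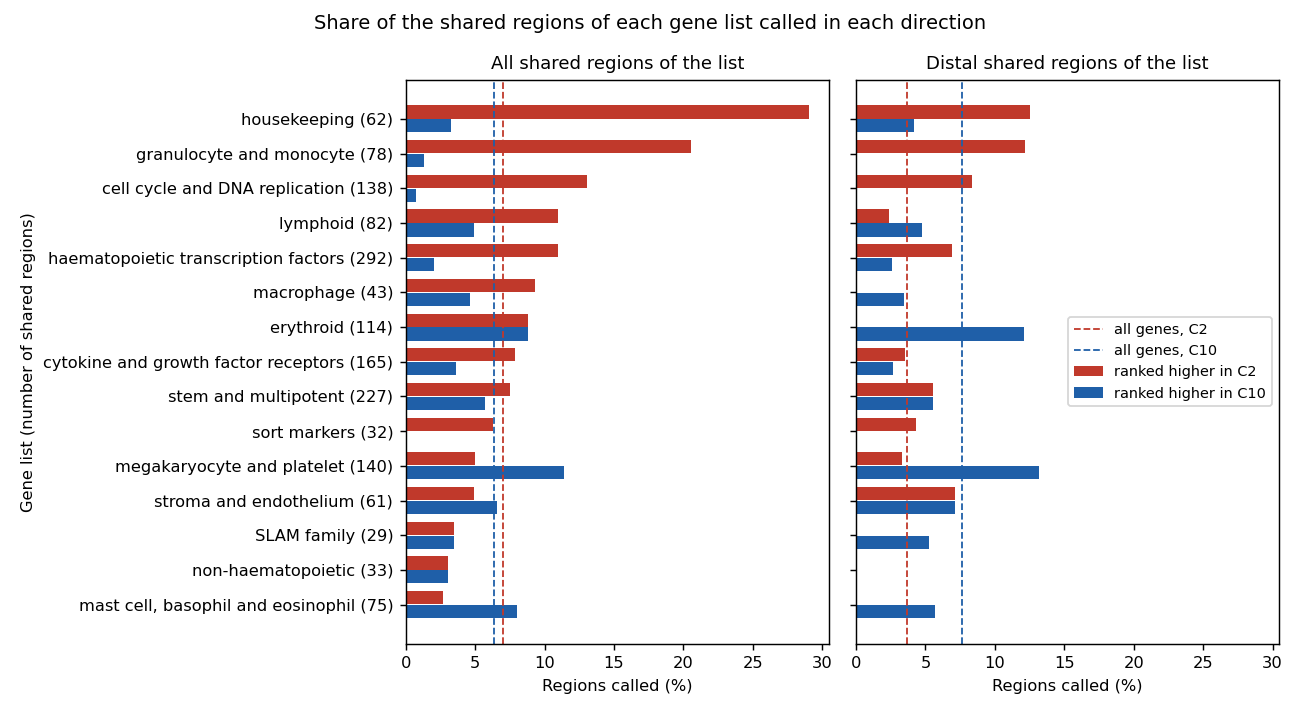
Share of the shared regions of each gene list that ranked higher in C2 (red) or in C10 (blue), over all shared regions (left) and distal ones (right), with dashed lines for all genes at 7.01% and 6.38% on the left and 3.63% and 7.65% on the right. The housekeeping and granulocyte and monocyte lists reach furthest to the red side, and the megakaryocyte and erythroid lists furthest to the blue side among distal regions.

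Of the 140 shared regions at 30 megakaryocyte and platelet loci, 16 ranked higher in C10 (11.4%, against 6.38% of all shared regions) and 7 in C2 (5%, against 7.01%), while the median was 0.01. Of the 91 distal ones, 12 ranked higher in C10 (13.2%, against 7.65% of all distal regions) and 3 in C2 (3.30%, against 3.63%), and 6 and 3 when ranked among themselves. The 16 calls came from 8 genes. Rab27b, a GTPase needed for platelet dense granule release, had 6 of its 8 shared regions higher in C10 and 0 in C2. The strongest of them ranked 1283 and 1654 in C10 and 5551 and 5354 in C2 (log2 -1.90 ± 0.34, adjusted p = 0.000506, and 0.0274 among distal regions alone). Serpine2, the thrombin inhibitor protease nexin 1, had 3 regions higher in C10 and 1 in C2. Of the 3, one ranked 12299 and 9247 in C10 against 36230 and 31882 in C2 (-1.67 ± 0.32, adjusted p = 0.000881).

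A region 9762 bases from the start of Trpc6, a cation channel of platelets, ranked 6422 and 7519 in C10 against 22864 and 26511 in C2 (-1.82 ± 0.32, adjusted p = 0.000347). In Mylk, the myosin light chain kinase, a region near the end of the lists in C2 (97830 and 98592) ranked 31161 and 40675 in C10 (adjusted p = 0.00163). The starts of Treml1, a receptor of platelet alpha granules, and of Tubb1, the platelet beta tubulin, ranked higher in C10 (adjusted p = 0.0193 and 0.0352). In the other direction, a distal region of Nfe2, a factor of platelet formation, ranked 25028 and 15739 in C2 and 55588 and 53231 in C10 (adjusted p = 0.00398). The rest of the 7 regions higher in C2 were at Nbeal2, Itga2b, Serpine2 and the starts of Cbx5, Slc25a11 and Pfn1, neighbours of Nfe2 and Gp1ba. Of the 276 merged regions of the list, 16 were called in C10 alone (5.80%), near the share of all regions (5.99%). By both callers 11 of the 16 were, against 64.8% of all regions in C10 alone. The 11 included the start of Gp6, the platelet collagen receptor, at ranks 89728 and 91968.

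Erythroid loci followed the split by position that all shared regions show. Of the 30 start regions of the list, 9 ranked higher in C2 and 1 in C10, against 20% and 2.34% of all start regions. Of the 66 distal regions 8 ranked higher in C10 (12.1%) and 0 in C2, against 7.65% and 3.63% of all distal regions. None of these distal regions passed when distal regions were ranked among themselves, with a median of -0.18 there against 0.00 over all distal regions. A distal region of Rhag, part of the Rh complex of red cells, ranked 1279 and 1101 in C10 and 2801 and 5572 in C2 (log2 -1.74 ± 0.37, adjusted p = 0.00243). At Gypc, glycophorin C, 2 distal regions ranked higher in C10 (adjusted p = 0.00679 and 0.0284), and 1 each did at Sptb, beta spectrin, and near Alas2, the first enzyme of erythroid haem synthesis (adjusted p = 0.00959 and 0.0180). The start of Trim10, a gene expressed in terminal erythroid cells, ranked 21292 and 19186 in C10 and 90831 and 45539 in C2 (adjusted p = 0.00174). The start of Rhag was called in C10 alone (61180 and 32697), by both callers.

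Among the erythroid starts that ranked higher in C2 were those of Klf1, the erythroid Krüppel-like factor, and Urod, a haem synthesis enzyme (adjusted p = 0.00691 and 0.00612). The lowest adjusted p of all shared regions belonged to a start of Epb41, protein 4.1 of the red cell skeleton. It ranked 1752 and 2714 in C2 and 44610 and 50328 in C10 (4.44 ± 0.32, adjusted p = 3.17e-10), but by HOMER scores the difference at this region was 0.32. A second start region of Epb41 ranked 1599 and 1376 against 4516 and 3645 (adjusted p = 0.00572).

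**Figure D3:**
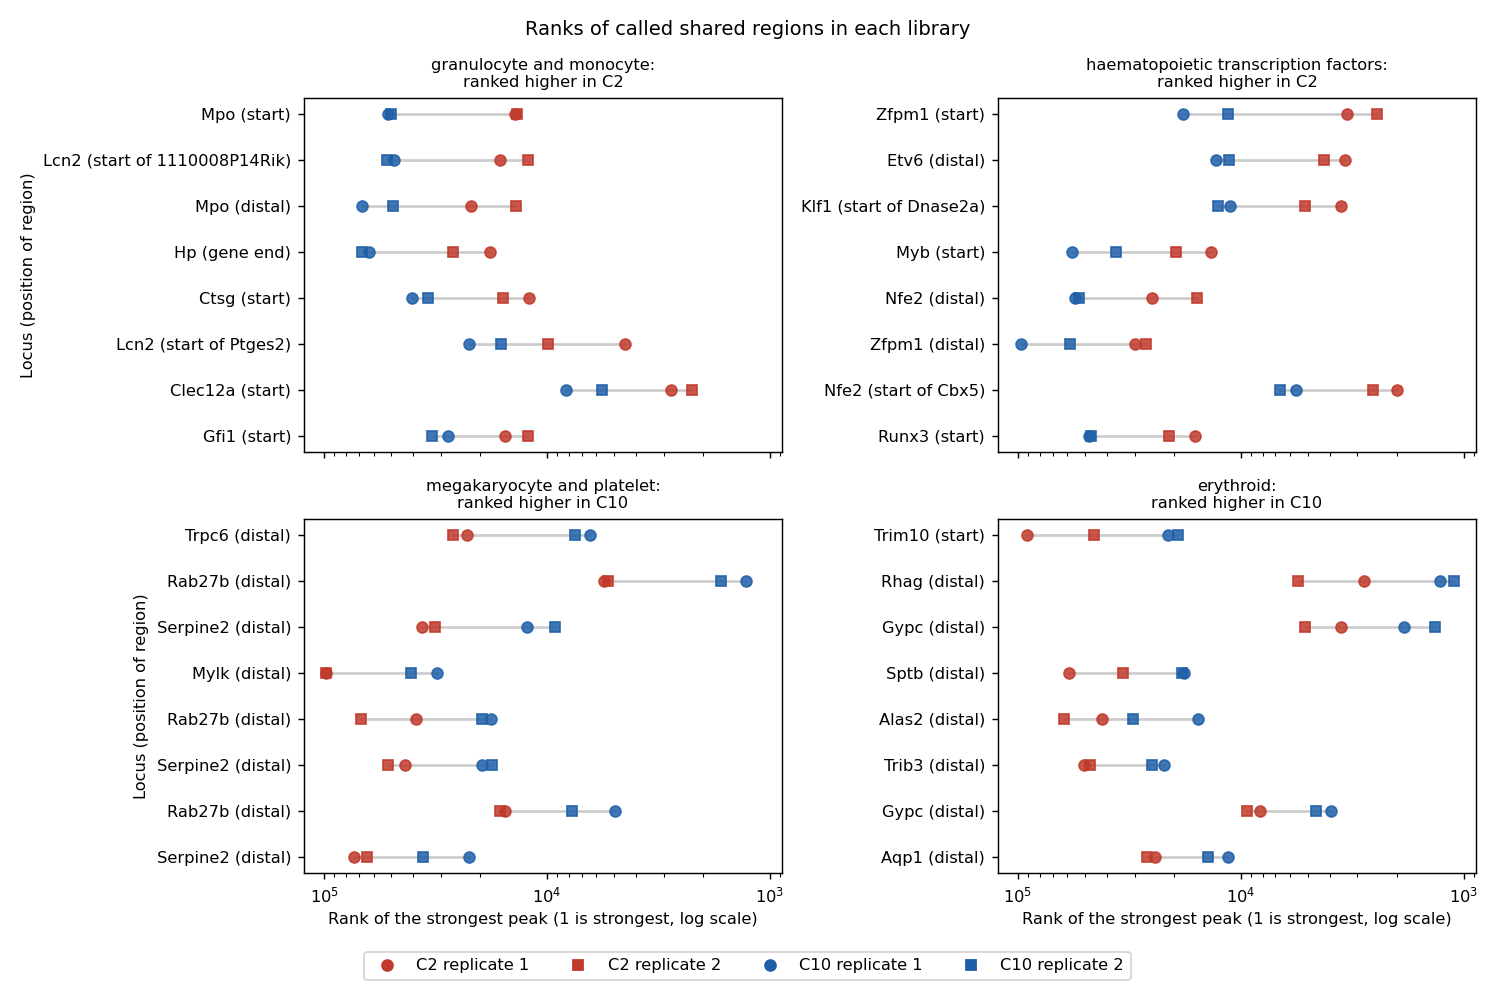
Rank of the strongest F-Seq peak in each library (x axis, log scale, strongest to the right) at up to 8 called regions of 4 gene lists, those with the smallest p among the genes reported here. Red marks C2 and blue C10, with circles for replicate 1 and squares for replicate 2. Red lies to the right of blue at each region of the upper panels and to the left at each region of the lower ones. The regions were called on these same ranks.

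Mast cell, basophil and eosinophil loci had 6 of 75 shared regions higher in C10 (8%) and 2 in C2, a C10 share near the 6.38% of all shared regions. Of their 53 distal regions 3 ranked higher in C10 (5.66%), against 7.65% of all distal regions. The start of Cpa3, mast cell carboxypeptidase, ranked 8381 and 12259 in C10 and 16880 and 30573 in C2 (adjusted p = 0.0205), and that of Gzmb, granzyme B, 18702 and 24735 against 46183 and 48984 (adjusted p = 0.0178). Regions at Ear1, Ccr3, Mitf and Il5ra made up the rest. The start of Hdc, which makes histamine, went the other way, at 12435 and 16020 in C2 and 50928 and 37359 in C10 (adjusted p = 0.00135), as did that of Kit.

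For comparison with the C2 promoters above, 5 promoters are given whose start regions ranked higher in C10 or, at Gp6, were called in C10 alone. They are in the same form and were again chosen after their values were seen. Ackr1, the Duffy receptor of red cells and endothelium, is among the start regions with the smallest p in this direction, with ranks 7774 and 8446 in C10 and 33974 and 21736 in C2 (log2 -1.75 ± 0.32, adjusted p = 0.000666).
Trim10: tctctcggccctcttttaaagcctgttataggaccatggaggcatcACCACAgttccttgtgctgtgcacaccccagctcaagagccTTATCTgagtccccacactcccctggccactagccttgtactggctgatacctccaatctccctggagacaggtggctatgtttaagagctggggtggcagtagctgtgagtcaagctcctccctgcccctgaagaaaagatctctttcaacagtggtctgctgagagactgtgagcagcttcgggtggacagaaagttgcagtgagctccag
Cpa3: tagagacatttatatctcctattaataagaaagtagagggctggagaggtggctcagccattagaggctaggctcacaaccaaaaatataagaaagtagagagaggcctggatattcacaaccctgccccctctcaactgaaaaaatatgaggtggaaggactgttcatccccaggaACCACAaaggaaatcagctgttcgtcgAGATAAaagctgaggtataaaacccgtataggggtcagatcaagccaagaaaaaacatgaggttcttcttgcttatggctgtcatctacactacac
Ackr1: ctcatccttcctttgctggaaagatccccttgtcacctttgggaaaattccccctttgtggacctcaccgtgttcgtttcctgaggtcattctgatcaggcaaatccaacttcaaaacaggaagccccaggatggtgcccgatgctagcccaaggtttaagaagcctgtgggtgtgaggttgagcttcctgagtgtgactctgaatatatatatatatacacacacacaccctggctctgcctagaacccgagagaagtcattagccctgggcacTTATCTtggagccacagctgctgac
Gp6: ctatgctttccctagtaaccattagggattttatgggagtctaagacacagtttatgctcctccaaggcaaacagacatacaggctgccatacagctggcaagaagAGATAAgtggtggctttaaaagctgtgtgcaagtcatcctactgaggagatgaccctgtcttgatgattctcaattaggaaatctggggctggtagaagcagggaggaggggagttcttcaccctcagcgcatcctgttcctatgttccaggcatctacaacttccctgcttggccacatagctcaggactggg
Tubb1: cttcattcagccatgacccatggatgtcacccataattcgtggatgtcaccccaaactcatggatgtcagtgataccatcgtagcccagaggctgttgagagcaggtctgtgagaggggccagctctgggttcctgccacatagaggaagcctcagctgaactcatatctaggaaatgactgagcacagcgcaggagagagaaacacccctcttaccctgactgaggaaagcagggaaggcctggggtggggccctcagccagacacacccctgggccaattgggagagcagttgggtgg
They lie at chr17:36869324-36869623 (plus strand) for Trim10, chr3:20242132-20242431 (minus) for Cpa3, chr1:173333454-173333753 (minus) for Ackr1, chr7:4397695-4397994 (minus) for Gp6 and chr2:174450345-174450644 (plus) for Tubb1. GATA matches are in the windows of Trim10, Cpa3, Ackr1 and Gp6, RUNX matches in those of Trim10 and Cpa3, and none of the motifs searched is in that of Tubb1.

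Over all promoters that lie whole within a shared region, the GATA motif was in 12.4% of the 258 with a higher rank in C10, in 5.17% of the 2805 with a higher rank in C2 and in 6.07% of the 8960 with neither. The ETS motif was in 21.3%, 33.0% and 27.0%, and GGGCGG, a motif of SP and KLF factors, in 35.7%, 72.8% and 63.4%. The C/EBP motif was in 12%, 7.84% and 8.09%, and the RUNX motif in 14.3%, 11.9% and 12.7%. The median GC content of these windows was 53.7%, 63.0% and 60.7%, so base composition differs between the sets along with the motifs. A match is a description of the letters and not of binding.

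Loci of stem and multipotent cells were mixed, with 17 of 227 shared regions higher in C2 (7.49%) and 13 in C10 (5.73%), near the shares of all regions. Hoxa9, a homeobox gene of progenitors whose locus overlaps that of Hoxa7, had 3 regions higher in C2, the first at ranks 7331 and 8382 against 19751 and 22859 (adjusted p = 0.00292). A region of Flt3, the receptor of multipotent and lymphoid-primed progenitors, ranked 14678 and 15551 against 34542 and 39526 (adjusted p = 0.00713), while the start of Urad within the same locus ranked higher in C10 (adjusted p = 0.0339). In C10, the start of Mllt3, a cofactor of stem cell maintenance, ranked 21115 and 17328 against 88357 and 45929 (adjusted p = 0.00117), and 2 regions of Prdm16, a zinc finger factor of stem cells, ranked higher (adjusted p = 0.0119 and 0.0260). Further lists are given as C2 and then C10, to be read against 7.01% and 6.38% of all shared regions. Cytokine and growth factor receptors had 13 and 6 of 165 (7.88% and 3.64%), and the SLAM family 1 and 1 of 29 (3.45% each). Lymphoid genes had 9 and 4 of 82 (11.0% and 4.88%), and macrophage genes 4 and 2 of 43 (9.30% and 4.65%). Stroma and endothelium had 3 and 4 of 61 (4.92% and 6.56%), and non-haematopoietic genes 1 and 1 of 33 (3.03% each).

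Whatever their gene, the regions of smallest p in C10 were all distal among the 6 examined, and those in C2 included 3 starts, of Epb41, Csnk1g2 and Por. The start of Csnk1g2, a casein kinase, ranked 2209 and 1720 in C2 and 17513 and 11687 in C10 (2.88 ± 0.33, adjusted p = 6.03e-06). That of Por, cytochrome P450 reductase, ranked 1442 and 1728 against 11124 and 9740 (adjusted p = 1.35e-05). Distal regions at Lin52, Sesn3 and Ldoc1 also had small p-values in C2, but HOMER listed no peak at Lin52 or Sesn3 in any library and a peak in 1 library at Ldoc1. In C10, a distal region of Ccdc50 ranked 3579 and 2715 against 20691 and 25956 in C2 (-2.89 ± 0.32, adjusted p = 3.19e-06). One of Rbfox1, a splicing factor gene, ranked 1563 and 2180 against 12887 and 15338 (adjusted p = 3.64e-06), and one of Jakmip2 292 and 205 against 2060 and 3946 (adjusted p = 1.09e-05). Regions at D16Ertd472e, Cped1 and Lsm8 followed.

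Regions called in 1 population alone were more numerous in C10. Of the 68932 regions called in both C2 libraries, 3346 (4.85%) had no peak in C10, and of the 82812 called in both C10 libraries, 8582 (10.4%) had none in C2. The 4 pairs of a C2 and a C10 library had 1144 to 2622 regions called in that pair and not in the other. The difference between the populations turned with the length of the lists, since with the 20000 strongest peaks there were 1872 for C2 and 1771 for C10. HOMER peaks in both own libraries and none in the other population supported 64.8% of the C10 regions (5563) but 16.0% of the C2 regions (534). The counts also rested on single libraries, and without one C2 library those of C2 were 16314 and 22252. Of the 6 C2 regions that ranked in the first 20000 in both libraries, 5 had no HOMER peak in either, including one in Pard3 at ranks 4 and 22.

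The regions private to C2 by both callers with the best ranks were at Sun2, a nuclear envelope gene (25256 and 25742), the S100a9 start, Sema4d (30206 and 27684), Pxylp1, Oscp1 and Gpr157. Those of C10 were at Dpp6 (22676 and 22906), Caap1 (21723 and 24363), Strn, Plxna2, Shroom4 and Ptprn2. Loci with the most regions in C2 alone were Gse1 (11 of 104 merged regions), Cdk6 (10 of 61), Runx1 (9 of 59), Etv6 (8 of 81), Sulf2 and Foxn3 (5 each) and Gas2l1 (4 of 9). Foxp1 also had 5 in C2 alone, but 6 in C10 alone. Those in C10 were Auts2 (13 of 82), the retinoic acid receptor gene Rarb (12 of 52), Pde4d (10 of 97), and Rbfox1, Hdac9, Smyd3, Psd3 and St6galnac3 with 9 each. The C10 genes span 523 to 1528 kb and the C2 genes 11.2 to 597 kb, and a longer gene holds more regions.

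By gene list, the macrophage loci had the largest share of regions in C10 alone among the 15 lists. They held 10 of 105 (9.52%, against 5.99% of all merged regions), with 2 in C2 alone (1.90%, against 2.34%). Of the 10, 3 were at Marco, and 6 were private to C10 by both callers, against 64.8% of all regions in C10 alone. Of the 43 shared regions of the list, 4 ranked higher in C2 (9.30%) and 2 in C10 (4.65%). Of all shared regions these shares were 7.01% and 6.38%. The 4 were all start regions, 3 of them in the Cd68 locus, and 20% of all start regions ranked higher in C2. The median log2 rank difference of the list was -0.19, toward C10, against -0.01 over all shared regions.

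**Figure D4:**
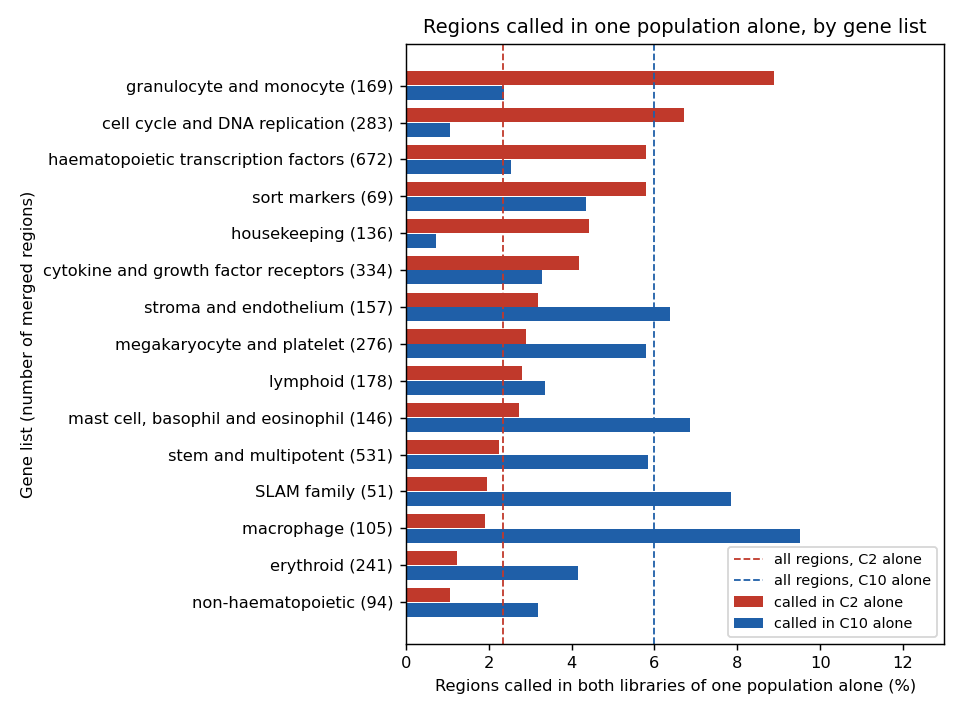
Share of the merged regions of each gene list called in both C2 libraries and no C10 library (red) or in both C10 libraries and no C2 library (blue), with dashed lines at 2.34% and 5.99% for all merged regions. The granulocyte and monocyte list stands at 8.88% for C2 and 2.37% for C10.

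As a measure of whole loci, the bases under F-Seq peaks were summed over each gene body extended by 10 kb, scaled to the mean covered length, and tested with limma on the log2(bases + 200) scale. No locus of 17949 passed an adjusted p of 0.05 (0%, smallest adjusted p = 0.0842), while 3115 (17.4%) were higher in C2 and 1401 (7.81%) in C10 at an unadjusted p under 0.05. Without scaling these were 2064 and 2052, so the excess for C2 rests on the scaling. Relative to the median of all loci, the HOMER lists had the same sign at 72.1% of the former and 90.3% of the latter, and at 65.8% of all loci. The count of adjusted calls changed with the measure and was 439 for C2 and 116 for C10 over loci covered in all 4 libraries, 1436 and 374 with the 20000 strongest peaks, 650 and 453 for the number of peaks, and 2213 and 462 with loci extended by 50 kb. The added 200 bases make log2 differences too small where little is covered.

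At Mpo, 18.03 and 16.8 kb lay under peaks in C2 and 4.28 and 5.30 kb in C10 (log2 1.83 ± 0.15, adjusted p = 0.0842). The neighbouring Lpo, lactoperoxidase, shares part of this interval and had 13.1 and 13.1 kb against 2.23 and 3.14 kb. Runx1 had 51.0 and 48.5 kb against 19.8 and 26.2 kb (1.12 ± 0.15), and Myb 22.9 and 14.5 kb against 5.40 and 7.02 kb (1.54 ± 0.25). Npepps, an aminopeptidase gene, had 3.17 and 3.04 kb in C2 and 0 kb in both C10 libraries. Sun2 had 9.50 and 9.03 kb against 3.48 and 3.27 kb. The remaining loci of smallest p in this direction were Smok2a, Fignl2, Rflnb, Faim2 and the overlapping pair Cers1 and Gdf1, and for the last 2 the HOMER lists had the opposite sign. In C10, Rai2 had 4.89 and 4.37 kb against 0.80 and 0.97 kb in C2 (-2.16 ± 0.22), and Cd70, a ligand of the TNF family, 1.19 and 1.41 kb against 0 kb in both C2 libraries. Ftdc2, Srpx2, Serpina5, Mid2, Dsc1, Klhl13, Mmp16 and Nt5el followed. Except for Runx1 and Myb, these loci were chosen among those at which the 2 populations do not overlap, so their separation is no result. None passed the threshold.

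**Figure D5:**
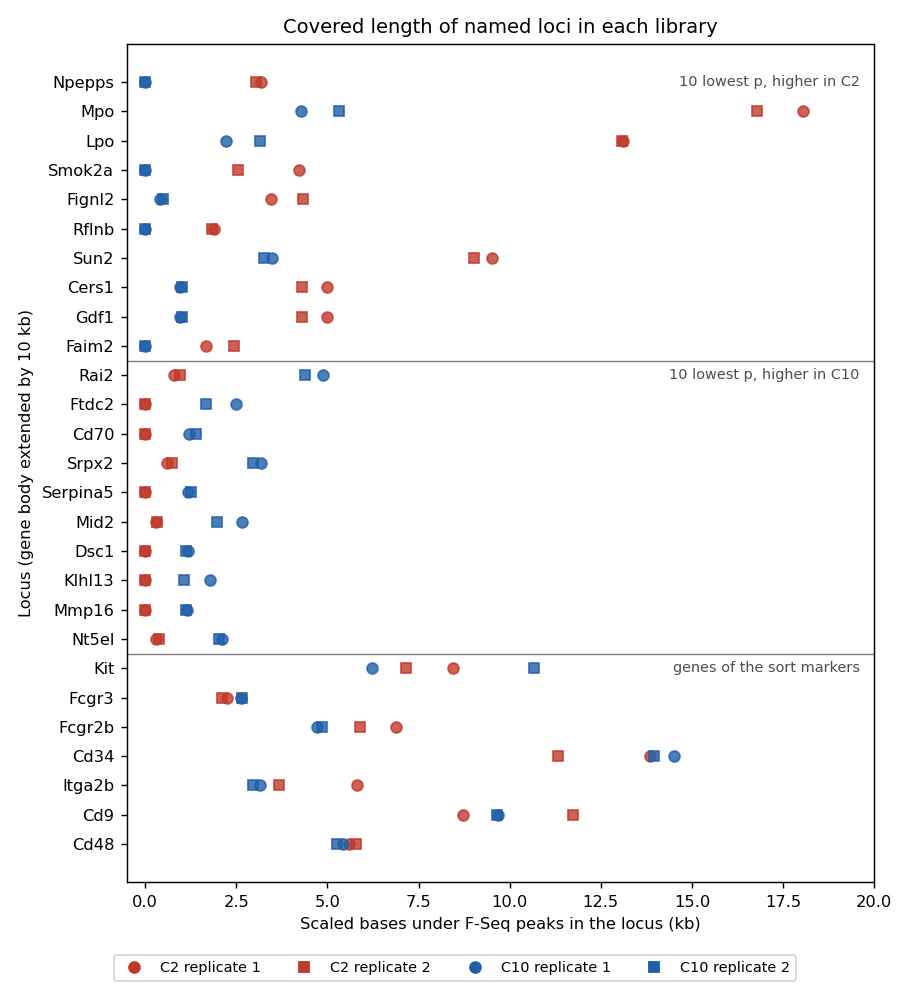
Scaled bases under F-Seq peaks (x axis, kb) in each library for the 10 loci of smallest p in each direction and the 7 genes of the sort markers. Red marks C2 and blue C10, with circles for replicate 1 and squares for replicate 2. The populations stand apart at the upper 20 loci, which were chosen for that, and overlap at Kit and Cd9 among the sort markers.

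Summed over the granulocyte and monocyte list, 162 and 176 kb were covered in C2 and 117 and 124 kb in C10. At an unadjusted p under 0.05 (limma), 12 of 29 tested loci were higher in C2 and 0 in C10. Over all 17949 loci, 17.4% were higher in C2 and 7.81% in C10 at that threshold. Without scaling these were 2064 and 2052 loci, so the excess for C2 rests on the scaling. For the transcription factors the sums were 685 and 651 kb against 509 and 560 kb (14 and 1 of 32 loci), for the cell cycle 307 and 282 kb against 223 and 224 kb (10 and 0 of 33), and for housekeeping genes 154 and 127 kb against 111 and 101 kb (7 and 0 of 22). The megakaryocyte and erythroid sums overlapped between the populations, at 227 and 230 kb against 231 and 227 kb and at 182 and 188 kb against 174 and 183 kb. Lists of other cells that the gates could hold differed less in their sums than the granulocyte and monocyte list did. Macrophage loci summed to 74.5 and 69.0 kb in C2 and 70.5 and 69.3 kb in C10, mast cell, basophil and eosinophil loci to 99.0 and 108 kb against 102 and 108 kb, stroma and endothelium to 84.9 and 92.9 kb against 93.6 and 94.4 kb, and lymphoid loci to 153 and 145 kb against 140 and 139 kb. The last pair of lists did not overlap, with stroma higher in C10 and lymphoid loci higher in C2, and their part in the results was not tested.

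Among the sort marker genes, Cd34 had 13.9 and 11.3 kb under peaks in CD34bright C2 and 14.5 and 14.0 kb in CD34dim C10 (-0.18 ± 0.14, adjusted p = 0.452). Its start region ranked 2431 and 1771 in C2 and 974 and 1504 in C10 (log2 -0.78 ± 0.38, adjusted p = 0.173). Neither difference passed the threshold, and for the locus the HOMER lists had the opposite sign (0.56). Cd48 had 5.58 and 5.80 kb in C2 and 5.44 and 5.25 kb in CD48bright C10 (0.09 ± 0.14, adjusted p = 0.739), a sign that turns without scaling. Of the 2 populations' common markers, Kit had 8.45 and 7.16 kb against 6.23 and 10.7 kb, Itga2b 5.81 and 3.66 kb against 3.16 and 2.96 kb (adjusted p = 0.232), and Cd9 8.72 and 11.7 kb against 9.68 and 9.65 kb. Fcgr3 and Fcgr2b, the receptors that CD16/32- sorting selects against, had 2.25 and 2.10 kb against 2.62 and 2.67 kb and 6.89 and 5.90 kb against 4.70 and 4.86 kb. All 7 loci were covered in all 4 libraries. Of all shared regions 7.01% ranked higher in C2 and 6.38% in C10. Among the 32 shared regions of these 7 loci, 2 ranked higher in C2 (6.25%, near that share) and 0 in C10. These were the start of Kit, at 4803 and 4056 against 11121 and 8762 (adjusted p = 0.0157), and a region 1566 bases from the start of Itga2b, at 13288 and 11883 against 29822 and 23306 (adjusted p = 0.0237, and 0.0335 among distal regions alone).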

How the data were processed

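ATAC-seq libraries of C2 and C10, 2 each, were analysed. The authors used Bowtie 1.0.0 and HOMER 1.0 on mm10, per the submitters' processing notes, while no source names an F-Seq version. In the deposited F-Seq files each peak has a signal and no count, and in the deposited HOMER files each peak has a score, in unnamed columns. Depth is unknown, and the number of libraries limits the precision.

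Bases under F-Seq peaks were summed over protein-coding RefSeq loci (GRCm38.p6, gene body extended by 10 kb), scaled, and compared as log2(bases + 200). Ranks of shared regions were compared as log2. Both fits used limma 3.58.1 in R 4.3.3 with Benjamini-Hochberg adjustment at 0.05, without a replicate block, and were tested on simulated data. Exact tests of 2 against 2 cannot go below a two-sided p of 0.333. HOMER lists served to check signs. Distances are to the starts in the RefSeq promoter table, which lacks chromosome 18 and some other genes. Distal regions were ranked again among themselves as a choice made after seeing the data.

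The text names the 10 loci of smallest p in each direction, taken where the populations do not overlap. It also names the 2 loci of smallest p of each list and the sort markers. The regions named are the 6 of smallest p or best rank of each class, and called regions of the lists. The members and lists were chosen with earlier results of these data known. Alternatives changed the caller, scaling, pseudocount, filter, list length, locus, overlap, spread and libraries. Some genes of the lists are counted but not reported here.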

Additional observations from a re-analysis of the deposited data

How the results depend on the processing

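The count of loci past the adjusted threshold was 0 in both directions with HOMER lists, no scaling, median centring, pseudocounts of 50 and 1000, no filter, 50000 strongest peaks, gene bodies only, peaks of both callers and the spread of all 8 libraries. It was 439 for C2 and 116 for C10 over loci covered in all 4 libraries, 1436 and 374 with the 20000 strongest peaks, 2213 and 462 with loci extended by 50 kb, and 650 and 453 for the number of peaks. Leaving out 1 library gave 0 to 19 for C2, the 19 without C10 replicate 2, and 0 to 0 for C10. At an unadjusted p under 0.05, no scaling gave 2064 loci for C2 and 2052 for C10, and centring 2125 and 2058.

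Regions called in C2 alone numbered 1872 with the 20000 strongest peaks and 2133 where no HOMER peak lay in C10, and those in C10 alone 3456 with the 50000 strongest, 1771 with the 20000 strongest and 25099 with HOMER lists. Leaving out 1 library gave 4599 to 22252 for C2 and 12523 to 17512 for C10. By construction, fewer libraries then have to hold or lack a peak.

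Shared regions ranked higher numbered 1612 in C2 and 1143 in C10 with linear ranks, and 1132 to 5275 and 945 to 5017 without 1 library. Regions called in at least 2 libraries, with missing ranks at the end of the list, gave 0 and 0 (limma, 24024 at an unadjusted p under 0.05, smallest adjusted p = 0.0973), and HOMER scores gave 0 and 0 (13532 at an unadjusted p under 0.05). Ranking again among distal regions, chosen after seeing the data, gave 1013 and 809. The causes were not tested. All 8249 calls kept their sign with linear ranks, in at least 2 libraries and without C2 replicate 2 or either C10 library. Without C2 replicate 1, 8248 did. These settings add no support, since they use the same ranks. Where those do not overlap, at 4321 C2 calls and 3926 C10 calls, the sign was fixed in advance. With HOMER scores, where regions without any HOMER peak count toward C2, 8215 kept their sign. All of the 5221 distal calls ranked again did so too. The excess of the Jaccard index within over between populations was 0.0588, and 0.0984 with the 20000 strongest peaks.

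The labels do not say that a replicate number pairs libraries, and deviations of same-numbered libraries correlated at r = 0.047 (over 17949 loci, across genes, which are not independent), so no pairing was assumed. A fit with the replicate block called 0 and 0 loci and 5741 and 5514 shared regions, 11255 in all against 8249.

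Of 218 named region calls, 153 no longer passed without C10 replicate 1, 120 without C10 replicate 2, 51 without C2 replicate 2, 39 without C2 replicate 1 and 131 with linear ranks, and none passed with HOMER scores or in at least 2 libraries. Of the named results, these log2 differences changed sign. With HOMER lists they were Fcgr3 0.19, Cd34 0.56, Cers1 and Gdf1 -1.33, Hba-a1 -0.12 and Gata2 -0.29. Without scaling they were Cd9 -0.040 and Cd48 -0.018, and with centring Cd9 -0.036 and Cd48 -0.015. With the 50000 strongest peaks they were Kit 0.31, Fcgr3 0.38 and Cd48 -0.075, and with the 20000 strongest Fcgr3 0.17, Fcgr2b -0.069 and Cd9 -0.20. Gene bodies only gave Cd9 -0.0078, and extension by 50 kb gave Fcgr3 0.25, Cd48 -0.037 and Myh6 0.66. Peaks of both callers gave Fcgr3 0.43, Cd9 -0.028, and Cers1 and Gdf1 -1.10, and the number of peaks gave Cd34 0.19. Without 1 library, Kit ranged from -0.45 to 0.31 and was positive without either replicate 2, Cd9 from -0.14 (without C2 replicate 2) to 0.28, and the Csf2ra start from -6.42 to 0.05 (without C2 replicate 1). The Csf2ra start was 0.67 with HOMER scores, and Ldoc1 was -0.028 with HOMER scores.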
